A study of Mus musculus with 14 samples.

Results

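The kidneys of female mice that were born preterm and made diabetic (PT-D) were compared with those of term-born mice that were not diabetic (T-ND), by bulk RNA sequencing of whole kidney. The comparison asks for the joint difference that preterm birth and hyperglycemia make to kidney gene expression. It rests on 7 of the 14 libraries of the series, the 3 labelled PT-D and the 4 labelled T-ND, and on 22310 genes. All mice were wild-type CD-1, an outbred stock, and were killed at 18 weeks of age, with 1 library per mouse. PT-D mice were delivered early by Caesarean section, were raised by foster mothers whose drinking water held acepromazine, a sedative, and as young adults were given streptozotocin (STZ). T-ND mice were born naturally at term, stayed with their own mothers and had no STZ. Mice of both groups had been injected with cationic ferritin for imaging, and the vessels of the left kidney were clamped before the animal was perfused with formalin. Some PT-D mice of the study needed a second course of STZ, and the labels do not give which. The delivery, the fostering, the sedative, STZ and the diabetes it causes all separate PT-D from T-ND and cannot be told apart here. The remaining 7 libraries, 4 from term diabetic mice (T-D) and 3 from preterm nondiabetic mice (PT-ND), are used only for levels set side by side with those of PT-D.

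STZ is a nitrosourea that enters cells through the glucose transporter Slc2a2, alkylates DNA and kills the insulin-producing beta cells of the pancreas, which leaves the animal hyperglycemic. DNA damage stabilises p53, a transcription factor that switches on genes of cell cycle arrest, repair and cell death. In the kidney, blood is filtered in glomeruli, where podocytes and endothelial cells share a basement membrane, and the filtrate then passes through the proximal tubule, the loop of Henle, the distal tubule and the collecting duct, each with its own transporters. Nephrons form around birth from progenitor cells under the control of transcription factors such as Pax2 and Osr1.

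The 7 libraries held between 16867340 and 26187982 reads counted on genes. Genes with a count numbered 20842 to 21349 in T-ND and 21632 to 22818 in PT-D. Reads on more than 1 gene made up 7.44% to 7.93% and 6.86% to 7.22%, and neither measure overlapped between the groups. Transcripts of the mitochondrial genome took 8.53% to 12.02% of the counted reads in T-ND and 11.1% to 16.9% in PT-D. The libraries did not group cleanly. Across genes, T-ND replicate 3 correlated with the PT-D libraries at 0.952 to 0.964 and with the other T-ND libraries at 0.951 to 0.969, whereas the other T-ND libraries correlated with PT-D at 0.926 to 0.962. Kidney markers were present in every library, and Y-linked genes had no count. The 7 pancreas markers summed to 2607 to 3468 normalized counts in T-ND and 1842 to 2782 in PT-D, most of it Cela1, while Ins1, Prss1 and Amy2a5 were at 0 and Pnlip and Cpa1 had at most 1 count. Ins2 had 3 to 21 raw counts in T-ND and 2 to 12 in PT-D. The 8 skeletal muscle markers summed to 2263 to 2616 in T-ND and 1127 to 2925 in PT-D, most of it Pvalb, which the distal convoluted tubule also expresses, with up to 105 counts of Myh1, and Ckm, Mb and Myh4 were at 0. Adipocyte markers varied from library to library (summed 2169 to 12105 normalized counts in T-ND and 3995 to 10692 in PT-D), and so did red cell markers (1267 to 11026 and 2410 to 5733). The 5 urothelial markers were detected in both groups and their summed level was 467 to 1088 normalized counts in T-ND and 52.0 to 426 in PT-D, without overlap. The 7 liver markers summed to 2235 to 3306 in T-ND and 4101 to 7124 in PT-D, most of it Apob, which kidney also expresses, while Ahsg and Serpina1c had at most 2 counts. Alb had 152 to 201 raw counts in T-ND and 307 to 790 in PT-D, and Apoa2 7 to 20 and 29 to 95. Apoa1 overlapped, with 2 to 20 and 3 to 11.

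In the test of all genes, 323 of 22310 were differentially expressed genes (DEGs; 1.45%), 222 of them higher in PT-D (0.995%) and 101 lower (0.453%). A DEG had an adjusted p-value under 0.05 in edgeR's quasi-likelihood test, with Benjamini-Hochberg adjustment over all genes tested, and a difference of more than 1 on the log2 scale in either direction. With no limit on the fold change, 616 genes passed the adjusted p (2.76%), 359 higher (1.61%) and 257 lower (1.15%), and 5412 had an unadjusted p under 0.05. In edgeR's fits SE is the standard error of a log2 fold change. A gene is said below to have passed when its adjusted p was under 0.05. All PT-D libraries lay above all T-ND libraries in 2676 genes (12%) and below them in 2491 (11.2%). The median log2 fold change of all genes was 0.03. Values below are counts normalized by edgeR's TMM factors, which compare libraries and not genes of different length, and in whole kidney fewer cells of a type cannot be told apart from less RNA per cell.

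**Figure D1:**
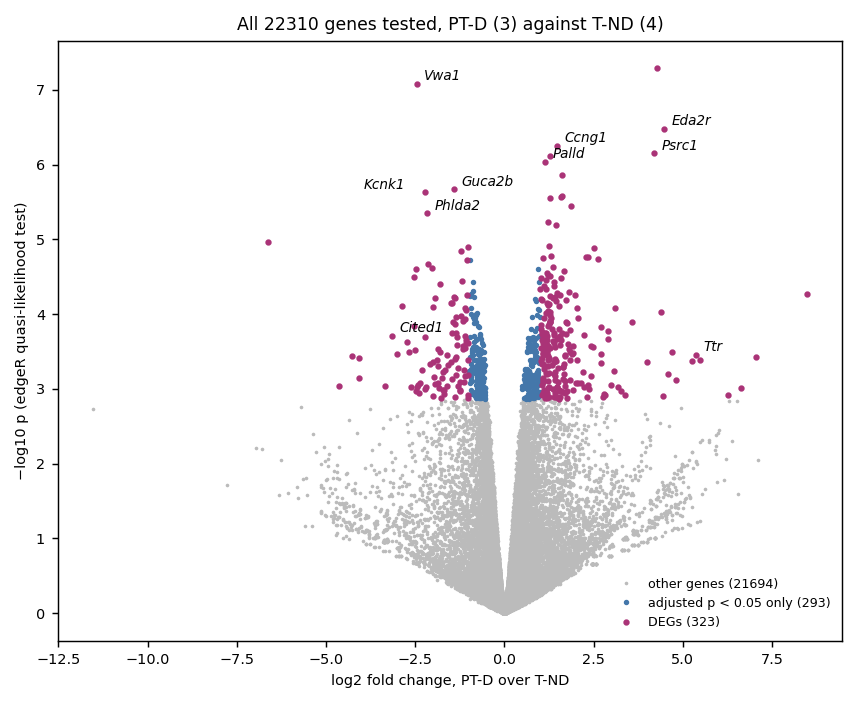
Each point is 1 of 22310 genes, placed by its log2 fold change of PT-D over T-ND (horizontal axis) and −log10 of its unadjusted p in edgeR's quasi-likelihood test (vertical axis). Purple points are the 323 DEGs, blue points the other genes with an adjusted p under 0.05 and grey points the rest. Eda2r and Psrc1 stand far to the right with log2 fold changes of 4.48 and 4.21, and Vwa1 has the smallest p on the left.

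The number of DEGs depended on single libraries. It was 28 without PT-D replicate 2, 30 without T-ND replicate 4, 39 without T-ND replicate 1, 45 without PT-D replicate 3, 103 without T-ND replicate 2, 220 without PT-D replicate 1 and 1070 without T-ND replicate 3. Of the genes named here, 16 passed whichever library was removed. Those higher in PT-D were Eda2r, Ccng1, Psrc1, Aldh1a1, Palld, Ephx1, Stab1, Acsf2, Zmat3, Phlda3, Rnd3 and Sipa1l2, and those lower were Vwa1, Guca2b, Kcnk1 and Phlda2. Every other named gene lost its call in at least 1 such fit, and none of the 125 named genes that passed changed direction in any of them. These genes were chosen for passing with all 7 libraries, so that their kept direction is no test of stability.

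**Figure D2:**
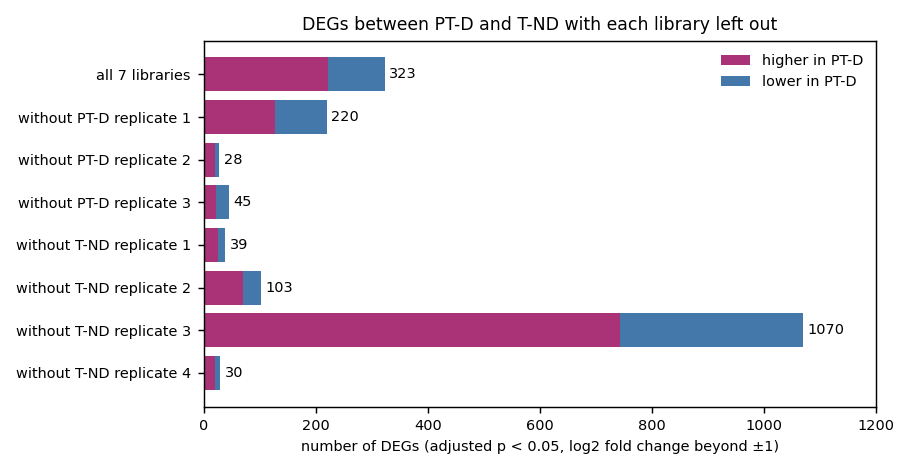
Number of DEGs between PT-D and T-ND (horizontal axis, from 0) with all 7 libraries and after removing single libraries, split into genes higher (purple) and lower (blue) in PT-D. The count falls to 28 without PT-D replicate 2 and rises to 1070 without T-ND replicate 3.

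Many genes that p53 is known to switch on were higher in PT-D. Of 41 listed targets tested, 16 passed, all higher (39%, against 1.61% of all genes), and the median log2 fold change of the list was 0.97 against 0.03 for all genes. Eda2r, a receptor of the TNF receptor family for the ligand ectodysplasin A2 (chromosome X, 96320270 to 96420847 in GRCm39), had 7.13, 7.31, 4.19 and 11.8 normalized counts in T-ND and 118, 184 and 219.9 in PT-D (log2 fold change 4.48 ± 0.37 SE, adjusted p = 0.00247). Psrc1, a microtubule-binding protein (chromosome 3, 108288765 to 108295547), had 5.94, 6.39, 13.6 and 5.37 in T-ND and 163, 105 and 174 in PT-D (log2 fold change 4.21 ± 0.38 SE, adjusted p = 0.00283). The lowest PT-D library thus exceeded the highest T-ND library by far in both genes. Cyclin G1, encoded by Ccng1, had 3388, 3082, 3123 and 3172 in T-ND and 7567, 10242 and 9161 in PT-D, and the T-ND libraries were close together (log2 fold change 1.49 ± 0.13 SE, adjusted p = 0.00283). Phlda3, an inhibitor of Akt, had 96.2, 95, 70.2 and 114 in T-ND and 319, 318 and 407 in PT-D (log2 fold change 1.88 ± 0.20 SE, adjusted p = 0.00579). For Zmat3, an RNA-binding zinc finger protein, the values were 352, 352, 356 and 314 in T-ND and 721, 823 and 995 in PT-D (log2 fold change 1.29 ± 0.13 SE, adjusted p = 0.00475). No library of either group reached the range of the other in these 5 genes, which was a condition for naming them by p.

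A match to the p53 response element was looked for in the 1000 bases before the start of each gene's canonical transcript. The element is 20 letters long, a pair of decamers without a spacer, and up to 2 mismatches were allowed outside the C and G of its core; it reads the same on both strands. Of 41 targets in the list, 4 held a match (9.76%), and of the 16159 protein coding genes searched 178 did (1.1%). Among the 16 targets that passed there were 3 matches, in Ccng1, Plk2 and Pmaip1, and among the other 25 there was 1, in Ckap2, whose log2 fold change was 1.07 with an adjusted p of 0.252. The sequences of Ccng1 and Plk2 are shown for members that passed, with Pmaip1 named only, and Ckap2 as the one that did not, 5′ to 3′ on the gene's strand with the match in capitals, from GRCm39 with GENCODE M39 starts. A match describes the letters and does not show that p53 binds there.
Ccng1 (chr11:40646269-40646328, minus strand, 170 bases before the start, 1 mismatch): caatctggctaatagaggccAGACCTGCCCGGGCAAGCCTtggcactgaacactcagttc
Plk2 (chr13:110530908-110530967, plus strand, 87 bases before the start, 2 mismatches): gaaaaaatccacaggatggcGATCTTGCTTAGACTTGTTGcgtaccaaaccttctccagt
Ckap2 (chr8:22675999-22676058, minus strand, 203 bases before the start, 2 mismatches): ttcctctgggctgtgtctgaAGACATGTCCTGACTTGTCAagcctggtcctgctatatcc

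The p53 targets that passed fall into several roles. Mdm2, the ubiquitin ligase that removes p53, had 898 to 1167 normalized counts in T-ND and 1700 to 2081 in PT-D (log2 fold change 0.89, adjusted p = 0.0206). Among cell death genes, Bbc3 and Pmaip1, which encode the BH3-only proteins Puma and Noxa, had log2 fold changes of 1.67 (adjusted p = 0.038) and 1.23 (adjusted p = 0.0227). Apaf1, the scaffold of the apoptosome, was at 1.23 (adjusted p = 0.031), and the death receptors Fas and Tnfrsf10b were at 1.48 (adjusted p = 0.0482) and 1.64 (adjusted p = 0.0356). Trp53inp1, a p53-induced nuclear protein, had 779.5, 354, 1853 and 912 in T-ND and 3009, 5097 and 4267 in PT-D (log2 fold change 2.08 ± 0.44 SE, adjusted p = 0.0414); T-ND replicate 3 was the highest of its group. The remaining targets that passed were Tmem43 at 1.06 (adjusted p = 0.0205), the heparan sulfatase Sulf2 at 1.25 (adjusted p = 0.0249), the nuclease Aen at 0.83 (adjusted p = 0.0296) and the kinase Plk2 at 1.40 (adjusted p = 0.0332). Cdkn1a, the cell cycle inhibitor p21 and the textbook target, did not pass. It had 951, 569, 2923 and 1248 in T-ND and 5084, 3686 and 4724 in PT-D (log2 fold change 1.66 ± 0.44 SE, adjusted p = 0.068), and T-ND replicate 3 stood well above the other T-ND libraries though still below PT-D. Perp, a desmosomal target, lay on the other side at −0.69 (adjusted p = 0.0502), with 883 to 1335 in PT-D and 1686 to 1985 in T-ND. The number of targets that passed was 5 without T-ND replicate 1 or 4 or PT-D replicate 2 or 3, 11 without T-ND replicate 2 or PT-D replicate 1 and 21 without T-ND replicate 3, and the median of the list lay at 0.80 to 1.02 over the 7 fits that left out 1 library.

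**Figure D3:**
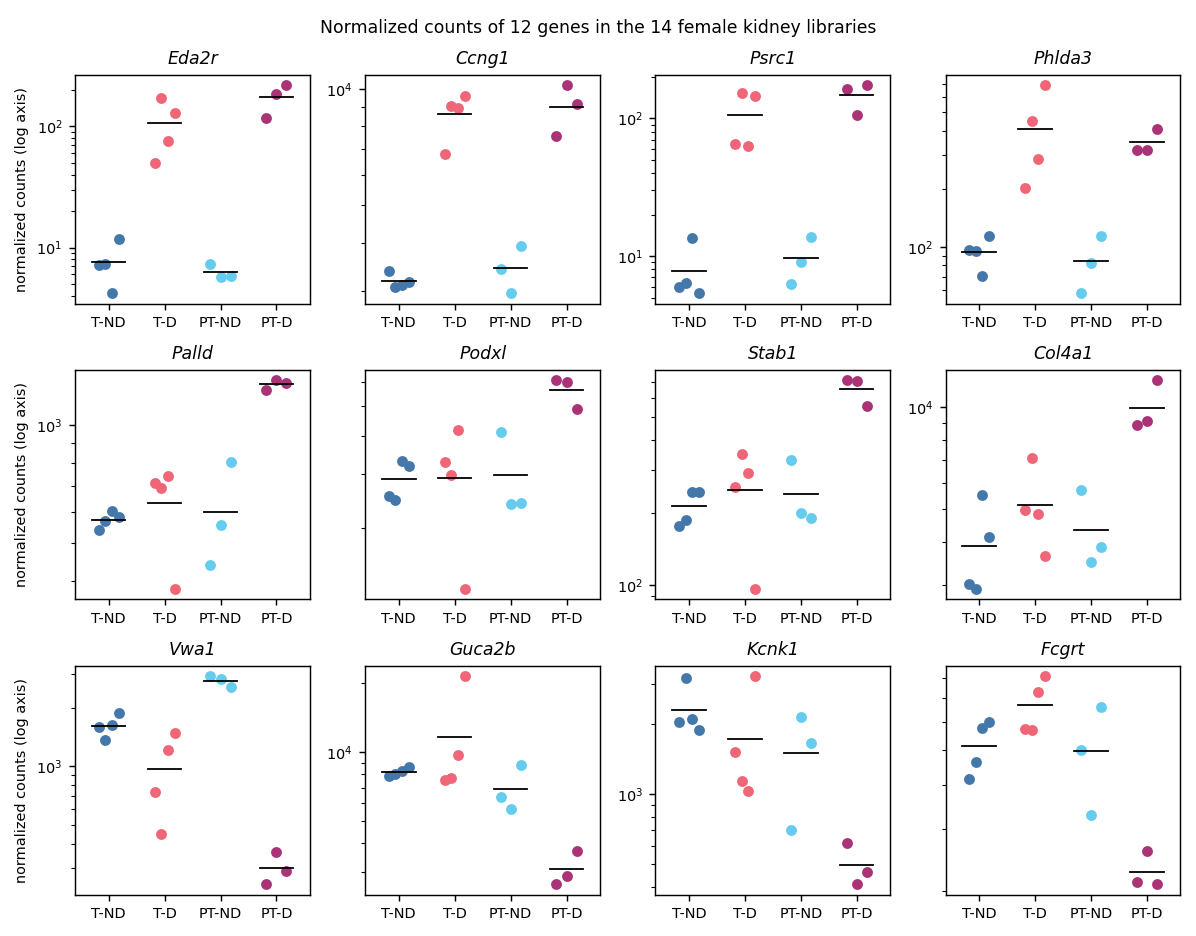
Normalized counts (log axis) of 12 genes in each of the 14 libraries, by group (T-ND and T-D with 4 libraries, PT-ND and PT-D with 3), with the mean of each group as a black line. In Eda2r, Ccng1, Psrc1 and Phlda3 the T-D points lie beside those of PT-D, whereas in Vwa1 and Fcgrt the PT-D points lie below the points of all other groups.

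Podocyte genes were also among those higher in PT-D. Of 25 listed genes tested, 10 passed, all higher (40%), with a median log2 fold change of 0.73. Podxl, the sialoprotein that coats podocyte foot processes, had 2545, 2481, 3329 and 3199 normalized counts in T-ND and 6077, 6017 and 4916 in PT-D (log2 fold change 0.97 ± 0.15 SE, adjusted p = 0.0223). Nephrin, the slit diaphragm protein encoded by Nphs1, had 267, 198, 519.6 and 501 in T-ND and 1207, 907 and 862 in PT-D (log2 fold change 1.41 ± 0.31 SE, adjusted p = 0.0465). T-ND replicates 3 and 4 were above replicates 1 and 2 in both genes, and no T-ND library reached PT-D. Ptpro, a phosphatase of foot processes, was at 1.15 (adjusted p = 0.0279), and the intermediate filament nestin (Nes) at 1.03 (adjusted p = 0.0302). Synaptopodin (Synpo) and the transcription factor Wt1 had log2 fold changes of 1.24 (adjusted p = 0.0325) and 1.19 (adjusted p = 0.0302). Pla2r1, a receptor for phospholipase A2, and the phospholipase Plce1 were at 1.05 (adjusted p = 0.0425) and 0.89 (adjusted p = 0.044), and the adaptor Cd2ap at 0.69 (adjusted p = 0.0477). Tcf21, a transcription factor of podocytes and stroma, was at −0.97 and did not pass (adjusted p = 0.0629). The count of podocyte genes that passed was less stable than their direction: it was 0 without T-ND replicate 1 or PT-D replicate 2 or 3 and 1 without T-ND replicate 2 or 4 or PT-D replicate 1, while the median stayed between 0.61 and 0.88.

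Endothelial genes differed unevenly. Of 28 markers, 4 passed and all were higher (14.3%, against 1.61% of all genes). The list median was 0.40, and 0.23 to 0.51 when 1 library was left out. VE-cadherin (Cdh5), the junction protein of endothelium, had 447, 410.1, 845 and 551 in T-ND and 1845, 1525 and 1603 in PT-D (log2 fold change 1.55 ± 0.23 SE, adjusted p = 0.0203). Flt4, a receptor for VEGF-C, had 222, 234, 340.4 and 236 and 778, 496 and 715 (log2 fold change 1.35 ± 0.20 SE, adjusted p = 0.0203). Endothelial nitric oxide synthase (Nos3) was at 1.40 (adjusted p = 0.038) and the receptor kinase Tie1 at 0.70 (adjusted p = 0.0407). The VEGF receptors Flt1 and Kdr had log2 fold changes of 0.91 and 0.40 and did not pass (adjusted p = 0.052 and 0.306). Stab1, a scavenger receptor of sinusoidal endothelium and macrophages that is not in the list, had 177, 186, 243 and 245 in T-ND and 710.5, 705 and 558 in PT-D (log2 fold change 1.62 ± 0.17 SE, adjusted p = 0.00475). It was named by a rule that required groups without overlap. Thrombomodulin (Thbd), the thrombin receptor of endothelium, was at 1.27 (adjusted p = 0.0181). The number of endothelial markers that passed was 0 without T-ND replicate 1 or 4 or PT-D replicate 3, 1 without PT-D replicate 2 and 2 without T-ND replicate 2 or PT-D replicate 1.

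Some receptors for guidance signals and for Notch ligands were higher as well. Among 19 Notch genes, Notch4 and Notch1 passed higher and the target Hes1 passed lower (15.8% of the list, against 2.76% of all genes). Notch4 had 226, 202, 315 and 294 in T-ND and 596, 581 and 574 in PT-D (log2 fold change 1.16 ± 0.17 SE, adjusted p = 0.0203), and Notch1 195, 163, 274 and 217 and 514, 425 and 496 (log2 fold change 1.17 ± 0.18 SE, adjusted p = 0.0231). For Hes1 the values were 725, 749, 797 and 887 in T-ND and 513, 412 and 484 in PT-D, the opposite sign to its receptors (log2 fold change −0.76, adjusted p = 0.0279). Of 31 semaphorins, plexins and ephrins, which steer the growth of axons and vessels, 7 passed and all were higher (22.6%, against 1.61% of all genes), with a median of 0.41. The ligand Sema3e had 39.2, 42.9, 42.9 and 38.7 in T-ND and 136, 120.4 and 114 in PT-D (log2 fold change 1.58 ± 0.22 SE, adjusted p = 0.0181). Its receptor Plxnd1 was at 0.78 (adjusted p = 0.0235) and the co-receptor Nrp1 at 1.13 (adjusted p = 0.0235). Sema3f, Sema3g, Plxna1 and Plxna2 made up the remaining calls, with log2 fold changes of 1.05, 1.19, 0.78 and 1.14. The number in this list that passed was 0 without T-ND replicate 1 or 4 or PT-D replicate 2 or 3, 1 without T-ND replicate 2, 4 without PT-D replicate 1 and 11 without T-ND replicate 3. Vessel wall genes were led by Mcam, an adhesion molecule of pericytes and endothelium, with 247, 272, 288 and 245 in T-ND and 811, 627 and 519.8 in PT-D (log2 fold change 1.30 ± 0.17 SE, adjusted p = 0.0147), and by the PDGF receptor Pdgfrb at 0.85 (adjusted p = 0.048), the only members of 20 renin-angiotensin and smooth muscle genes that passed with all 7 libraries. They are 10% of that list, against 1.61% of all genes. Without T-ND replicate 1 or 4, or PT-D replicate 2 or 3, none of Notch4, Notch1 and Hes1 passed, and calls among the smooth muscle genes numbered 0 without T-ND replicate 4 or PT-D replicate 2, 1 without T-ND replicate 1 or 2 or PT-D replicate 3 and 7 without T-ND replicate 3.

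All but 1 of the basement membrane genes that passed were higher. Of 26 tested, 6 passed higher and 1 lower (26.9%, against 2.76% of all genes), and the median was 0.59. Of the collagen IV chains that line vessels and tubules, Col4a1 had 3011, 2920, 5517 and 4159.9 in T-ND and 8849, 9081 and 11989 in PT-D (log2 fold change 1.35 ± 0.23 SE, adjusted p = 0.027) and Col4a2 was at 1.45 (adjusted p = 0.0327). The laminin chains Lama4 and Lamc1 were at 1.27 (adjusted p = 0.0232) and 1.03 (adjusted p = 0.027), the linker nidogen (Nid1) at 1.03 (adjusted p = 0.0182) and the proteoglycan perlecan (Hspg2) at 1.17 (adjusted p = 0.0484). The exception was Vwa1, a matrix protein that binds perlecan, with 1593, 1363, 1642 and 1881 in T-ND and 246, 361 and 289 in PT-D. The highest PT-D library of Vwa1 was well below the lowest T-ND library (log2 fold change −2.45 ± 0.17 SE, adjusted p = 0.000929). Higher calls in the list numbered 0 without T-ND replicate 1 or 4 or PT-D replicate 2 or 3, 1 without T-ND replicate 2, 3 without PT-D replicate 1 and 12 without T-ND replicate 3.

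Among 31 other collagens and matrix proteins, 6 passed and all were higher (19.4%, against 1.61% of all genes). Their median was 0.59, and 0.38 to 0.78 when 1 library was left out. Tenascin C (Tnc), a matrix protein of injured tissue, had 72.5, 74, 93.2 and 84.9 in T-ND and 290, 183 and 307 in PT-D (log2 fold change 1.67 ± 0.23 SE, adjusted p = 0.0168). Fibronectin (Fn1) had 427, 653, 528 and 489 and 792, 1359 and 1509.8, and PT-D replicate 1 was the lowest of its group (log2 fold change 1.21 ± 0.22 SE, adjusted p = 0.0302). Col14a1, Col15a1, Col18a1 and Sparc had log2 fold changes of 1.07, 1.06, 0.86 and 0.76. Col1a1, the main fibrillar collagen, had 85.5, 50.2, 60.8 and 61.3 in T-ND and 52.9, 253 and 171 in PT-D, so that PT-D replicate 1 lay below the T-ND mean, and it did not pass (log2 fold change 1.30, adjusted p = 0.114). Calls in this list of matrix proteins numbered 0 without T-ND replicate 1 or 4 or PT-D replicate 3, 1 without PT-D replicate 2 and 3 without T-ND replicate 2. Of 24 proteases and inhibitors 4 passed, all higher (16.7%, against 1.61% of all genes, median 0.83). They were the inhibitor Serpine2 with 567, 584, 308 and 536 in T-ND and 1703, 1130 and 1108 in PT-D (log2 fold change 1.39 ± 0.24 SE, adjusted p = 0.0279), the membrane protease Mmp14 at 0.90 (adjusted p = 0.0296), the gelatinase Mmp9 at 2.21 (adjusted p = 0.0372) and the urokinase receptor Plaur at 1.21 (adjusted p = 0.038); the count was 0 without T-ND replicate 1 or 2 or 4 or PT-D replicate 2 or 3, 1 without PT-D replicate 1 and 9 without T-ND replicate 3. Tgfb1, the growth factor of fibrosis, was at 0.69 (adjusted p = 0.0491), with 250.5 to 341 in T-ND and 418 to 509 in PT-D. It was the only one of 32 TGF-beta, BMP and Wnt genes to pass higher (list median 0.07). No member passed higher with upper quartile normalization or in the joint fit of all 14 libraries. The same held without T-ND replicate 1, 2 or 4 or PT-D replicate 2 or 3. Palladin (Palld), an actin-bundling protein of podocytes and stromal cells (chromosome 8, 61964458 to 62355796), had 539, 569, 602 and 583 in T-ND and 1229, 1303 and 1285 in PT-D (log2 fold change 1.14 ± 0.10 SE, adjusted p = 0.00292).

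Some genes of the distal nephron and collecting duct were lower in PT-D. In the list of 24 genes of the thick ascending limb and distal convoluted tubule, 3 passed and all were lower (12.5%, against 1.15% of all genes). The list median was −0.53, −0.92 without PT-D replicate 1 and −0.29 without PT-D replicate 2. Uromodulin (Umod), the most abundant protein of urine, had 50136, 52304, 40908 and 36208 in T-ND and 24997, 11486 and 15259.9 in PT-D (log2 fold change −1.39 ± 0.26 SE, adjusted p = 0.0325). Cldn19, a tight junction protein for magnesium uptake, had 807, 986, 310.1 and 447 and 192, 177 and 161 (log2 fold change −1.86 ± 0.36 SE, adjusted p = 0.0344), and the BMP and Wnt antagonist Sostdc1 was at −1.25 (adjusted p = 0.045). The sodium chloride carriers of these segments did not pass. Slc12a1 of the thick limb had 19284, 19955, 11600.2 and 12293 in T-ND and 16725, 5824 and 9604 in PT-D, and Slc12a3 of the distal convoluted tubule 6353, 5201, 13287 and 11139 and 22462, 9368 and 8990.2, with PT-D replicate 1 the highest library of its group in both (log2 fold change −0.56 and 0.59, adjusted p = 0.335 and 0.382). Lower calls in the list numbered 0 without T-ND replicate 1 or 2 or 4 or PT-D replicate 2 or 3, 7 without PT-D replicate 1 and 9 without T-ND replicate 3.

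Of 28 genes of the connecting tubule and principal cells, Guca2b and Kcnk1 passed, both lower (7.14%, against 1.15% of all genes). Guca2b encodes uroguanylin, a peptide that promotes sodium loss in urine, and had 7830.2, 8000, 8256 and 8599 in T-ND and 2649, 2885 and 3697 in PT-D (log2 fold change −1.42 ± 0.14 SE, adjusted p = 0.00475). The potassium channel gene Kcnk1 had 2058, 3166, 2116 and 1885 and 615, 409 and 461 (log2 fold change −2.23 ± 0.23 SE, adjusted p = 0.00475). In both genes the groups were far apart, and the absence of overlap was a condition for naming them by p. The T-ND libraries of Guca2b differed little among themselves. Both genes passed in every fit that left out 1 library, and without PT-D replicate 1 the list held 5 lower calls and without T-ND replicate 3 it held 4, beside 3 higher. The water channel Aqp2 of principal cells overlapped between groups (7517 to 14673 in T-ND and 3179 to 7722 in PT-D, adjusted p = 0.152). None of 20 intercalated cell genes passed in the main edgeR fit, 1 had an unadjusted p under 0.05 and 1 passed with DESeq2. In edgeR 2 passed lower without T-ND replicate 3 and 1 without PT-D replicate 1. Their median was −0.06, and it ran from −0.415 without PT-D replicate 1 to 0.135 without PT-D replicate 3. The smallest p in that list were those of Slc4a1 at −1.10 (adjusted p = 0.122) and Slc26a7 at −0.84 (adjusted p = 0.26), both overlapping. Other transport and lipid genes were lower outside these lists. The sodium proton exchanger Slc9a2 had 812, 702, 819 and 868 in T-ND and 371, 439 and 372 in PT-D (log2 fold change −1.03 ± 0.13 SE, adjusted p = 0.0137), and the sulfotransferase Gal3st1, which makes the sulfatide of distal tubule membranes, 972, 1028, 728 and 838 and 425, 370.1 and 359.9 (log2 fold change −1.22 ± 0.15 SE, adjusted p = 0.0145). Ppp1r1b, a phosphoprotein regulated by dopamine and cAMP, was at −2.49 (adjusted p = 0.0302) and the acyl-CoA thioesterase Acot7 at −1.80 (adjusted p = 0.019).

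Several regulators of kidney development were lower. Of 36 tested, 6 passed and all were lower (16.7%, against 1.15% of all genes), with a median of −0.67. The inhibitors of helix-loop-helix factors Id4 and Id2 had 1242, 1048, 780.4 and 954 and 7665, 7532, 5157 and 8106 in T-ND, and 146, 337 and 262 and 3405, 2042 and 2318 in PT-D. No PT-D library of either gene reached the T-ND range, which for Id4 was a condition for naming it by p (log2 fold change −2.02 and −1.47, adjusted p = 0.0164 and 0.021). The homeobox factors Irx1, of the distal nephron, and Emx1 were at −1.35 (adjusted p = 0.0235) and −1.11 (adjusted p = 0.0239). Cited1, a coregulator of nephron progenitors, had 174, 74, 56.6 and 89.2 in T-ND and 4.56, 9.78 and 18.4 in PT-D (log2 fold change −3.15 ± 0.55 SE, adjusted p = 0.0279), and the ligand Shh was at −1.79 (adjusted p = 0.0302) on 11.2 to 15.5 normalized counts in PT-D. Wnt9b, a ligand of the collecting duct that starts nephron formation and comes from the list of TGF-beta, BMP and Wnt signals, had 145, 116, 48.2 and 118 and 7.3, 6.77 and 25.6 (log2 fold change −3.01 ± 0.56 SE, adjusted p = 0.0306). The count of lower calls was 0 without T-ND replicate 4, 1 without T-ND replicate 1 or PT-D replicate 2 or 3, 3 without PT-D replicate 1 and 12 without T-ND replicate 3. The urothelial marker sum moved in the same direction, and its part in these values was not tested; the uroplakin Upk3a had 280.4, 162, 128 and 334 in T-ND and 8.21, 88 and 29.6 in PT-D and did not pass (log2 fold change −2.42, adjusted p = 0.0674), Upk1b was at −1.91 (adjusted p = 0.153) and the urea transporter Slc14a1 at −2.19 (adjusted p = 0.0861). Krt15, a keratin of basal epithelial cells, had 72.5, 81.3, 88 and 98.9 and 13.7, 10.5 and 21.6 (log2 fold change −2.48 ± 0.33 SE, adjusted p = 0.0164). None of the 21 genes of thin limb, osmolyte handling and urothelium passed in the main edgeR fit (10 had an unadjusted p under 0.05 and 4 passed with DESeq2), at a median of −0.64, and the osmotic stress factor Nfat5 was the member with the smallest p, at 0.52 (adjusted p = 0.0649). In edgeR 2 passed higher and 2 lower without T-ND replicate 3, 1 lower without PT-D replicate 1 and 2 lower with no filter on low counts. The list median was −0.31 without PT-D replicate 2. Also lower were Phlda2, an imprinted gene that restrains growth (chromosome 7, 143055282 to 143056887), with 356, 323, 195 and 276 in T-ND and 62, 65.5 and 67.2 in PT-D (log2 fold change −2.15 ± 0.24 SE, adjusted p = 0.00666), and Ccdc170 and Lypd2 at −3.35 (adjusted p = 0.0429) and −2.68 (adjusted p = 0.0302).

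The calls among proximal tubule genes were near the share of all genes that passed (2.76%). None of 20 uptake carriers, 20 organic ion transporters and 20 genes of gluconeogenesis and glycolysis passed in edgeR. In these lists 6, 6 and 4 had an unadjusted p under 0.05, and 3, 4 and 3 passed with DESeq2, as 3, 2 and 2 did in edgeR without T-ND replicate 3. Their medians were 0.15, −0.16 and −0.19. With 1 library left out they ran from 0.035 to 0.214, −0.263 to −0.076 and −0.226 to −0.092. The carrier median was −0.023 in the libraries without the suffix "a" in their names. The water channel Aqp1 and the endocytic adaptor Dab2 had the smallest p among the carriers, at −0.78 (adjusted p = 0.0785) and 0.47 (adjusted p = 0.089). Among the ion transporters these were the urate carrier Slc17a3 at −0.98 (adjusted p = 0.0587) and Abcc4 at 0.53 (adjusted p = 0.0735), and in the sugar pathway fructokinase (Khk) at −0.51 (adjusted p = 0.0737) and hexokinase Hk2 at 1.53 (adjusted p = 0.0809). Slc2a2, through which STZ enters cells, had 2422, 1622, 1818 and 2232 in T-ND and 2738, 3028 and 2713 in PT-D and did not pass (log2 fold change 0.47, adjusted p = 0.103). The brush border held 1 gene that passed of 19, the angiotensin-degrading peptidase Enpep, with 1567, 1287, 1931 and 1905 in T-ND and 3028, 3215 and 3031 in PT-D (log2 fold change 0.88 ± 0.15 SE, adjusted p = 0.0279). Kap, an androgen-regulated transcript of the proximal tubule and one of the most abundant of kidney, had 346985, 410229.5, 192414 and 221390.5 in T-ND and 5579, 53989 and 88382 in PT-D. All PT-D libraries were below all T-ND libraries, with PT-D replicate 1 the lowest of the 7, and Kap did not pass (log2 fold change −2.58, adjusted p = 0.0737). Fcgrt, the receptor that recycles albumin and IgG (chromosome 7, 44742412 to 44756819), had 4146, 4629, 5768 and 6014 in T-ND and 2126, 2592 and 2094 in PT-D (log2 fold change −1.19 ± 0.17 SE, adjusted p = 0.0182).

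Enzymes of retinoid and foreign compound metabolism changed in both directions. Of 39 cytochrome P450 and conjugation enzymes, Aldh1a1 and Ephx1 passed higher and the monooxygenase Fmo5 lower (−1.83, adjusted p = 0.0438). These were 7.69% of that list, against 2.76% of all genes. Aldh1a1, which makes retinoic acid, had 417, 405, 397 and 442 in T-ND and 959.5, 952 and 1127 in PT-D, and the libraries of each group were close together (log2 fold change 1.28 ± 0.12 SE, adjusted p = 0.00283). Ephx1, the microsomal epoxide hydrolase, had 930.4, 839, 689 and 951 and 2168, 2847 and 2842 (log2 fold change 1.61 ± 0.15 SE, adjusted p = 0.00387). Among 22 retinoid genes, Aldh1a1, Ttr and Crabp1 passed higher and the dehydrogenase Rdh16 lower (−0.62, adjusted p = 0.0447), 18.2% of that list. Ttr, the thyroxine and retinol transport protein, had 14.3, 16.4, 4.19 and 5.37 in T-ND and 67.5, 1109 and 104 in PT-D (log2 fold change 5.37 ± 1.00 SE, adjusted p = 0.0309); the 3 PT-D libraries spanned more than 10-fold. Ttr is also one of the liver markers, whose sum moved in the same direction; their part in its level was not tested. Crabp1, a retinoic acid binding protein, had no count in any T-ND library and 13.7, 21.8 and 10.4 in PT-D, at least 19.3-fold higher against a floor of 3 counts over the T-ND group (adjusted p = 0.0319). Cyp4a12a and Cyp4a12b, fatty acid omega-hydroxylases that are near-identical copies and may share reads, had 233, 122, 162 and 127 and 8.32, 15.5, 2.1 and 31.2 in T-ND, and 695, 406 and 494 and 119, 222 and 184 in PT-D (log2 fold changes of 1.72 and 3.59, adjusted p = 0.0205 and 0.0245). In fatty acid oxidation, with 31 genes, Cyp4a12a was the only member that passed higher. Echs1 and the binding protein Fabp3 passed lower at −0.57 (adjusted p = 0.0401) and −0.65 (adjusted p = 0.0486). These calls were 9.68% of the list, and both higher and lower calls ran from 0 to 5 when 1 library was left out. The acyl-CoA synthetase Acsf2 had 254, 224, 278 and 364 in T-ND and 880.1, 855 and 816 in PT-D (log2 fold change 1.60 ± 0.17 SE, adjusted p = 0.00475). Also lower were the hydroxysteroid dehydrogenase Hsd17b14, at −2.14 (adjusted p = 0.0161), and Macrod1, which removes ADP-ribose from proteins, at −1.03 (adjusted p = 0.0147).

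Genes of the respiratory chain and of the ribosome had small negative differences, of which few passed. Of 77 nuclear genes for oxidative phosphorylation, 76 had a negative log2 fold change, at a median of −0.35, and in 40 all PT-D libraries lay below all T-ND libraries (11.2% of all genes did). In edgeR only Ndufb8, a subunit of complex I, passed, whereas with DESeq2 20 of the list passed, all lower. Ndufb8 had 2777, 2507, 2951 and 3029 in T-ND and 1376, 1369 and 1599 in PT-D (log2 fold change −0.97 ± 0.13 SE, adjusted p = 0.0147). Calls in this list numbered 0 without T-ND replicate 1 or 4 or PT-D replicate 2 and 8 without T-ND replicate 3. Transcripts of the mitochondrial genome had a median of 0.53 and none of 13 passed in edgeR (3 had an unadjusted p under 0.05, 2 passed with DESeq2 and 3 with the library-name suffix as a covariate). Without PT-D replicate 1 their median was 0.11 and 1 passed; mt-Nd5 was at 0.75 (adjusted p = 0.0747) and mt-Nd4 at 0.69 (adjusted p = 0.0939). Of 31 proteins of the small ribosomal subunit, 30 were negative and none passed in edgeR (median −0.38; 16 had an unadjusted p under 0.05, 7 passed with DESeq2 and 6 without T-ND replicate 3), Rps9 being at −0.49 (adjusted p = 0.0587) and Rps6 at −0.50 (adjusted p = 0.0615). In edgeR no gene passed among 34 antioxidant genes (median −0.32), 25 of sterol and triglyceride synthesis (−0.26) and 28 of the unfolded protein and heat shock response (0.28). In these 3 lists 8, 4 and 10 genes had an unadjusted p under 0.05, and 4, 2 and 8 passed with DESeq2. In edgeR, removing T-ND replicate 3 gave 5, 3 and 3 calls, using no filter on low counts gave 4, 2 and 4, and 1 heat shock gene passed without T-ND replicate 2. The antioxidant median turned to 0.08 in the libraries without the suffix "a" in their names, with 4 genes passing higher and 1 lower, and was −0.20 without T-ND replicate 2 or PT-D replicate 1. In the same unsuffixed libraries the sterol median was 0.02 and the heat shock median 0.56. The sterol median was −0.14 without T-ND replicate 1 or PT-D replicate 1, and the heat shock median 0.48 without T-ND replicate 2. Among their smallest p were those of Gstp1 and Sod1 at −0.85 (adjusted p = 0.0566) and −0.63 (adjusted p = 0.0609), the desaturase Scd2 at −0.58 (adjusted p = 0.0523), and the chaperones Hspa8 and Dnajb1 at 0.81 (adjusted p = 0.0523) and 0.62 (adjusted p = 0.0568).

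Tubular injury markers were higher in part. Of 30 tested, 3 passed higher and 1 lower (13.3%, against 2.76% of all genes, median 0.56). Annexin A1 (Anxa1), which limits inflammation, had 381, 425, 582 and 498 in T-ND and 1015, 995 and 889 in PT-D (log2 fold change 1.03 ± 0.15 SE, adjusted p = 0.0203). Clusterin (Clu), a chaperone of damaged tubules, had 4218, 5348, 8121 and 7484 and 15266, 12030.4 and 16389.8 (log2 fold change 1.20 ± 0.23 SE, adjusted p = 0.0309), and osteopontin (Spp1) was at 0.69 (adjusted p = 0.0388). The small heat shock protein Cryab was the lower member, at −1.57 (adjusted p = 0.0341). Higher calls numbered 0 without T-ND replicate 1 or 4 or PT-D replicate 2 or 3, 1 without PT-D replicate 1 and 11 without T-ND replicate 3. Havcr1, the injury marker Kim-1, split both groups. It had 2638, 2475, 1304 and 57 in T-ND and 97.6, 1599 and 1312 in PT-D, so that 3 T-ND libraries and 2 PT-D libraries were above 1000 and the other library of each group was below 100, and the difference was −0.70 with a standard error of 1.03 (adjusted p = 0.715). In T-D and PT-ND, Havcr1 lay between 39.6 and 202 and between 82.6 and 121. Lcn2, an iron-binding injury and neutrophil protein, had 178, 241, 3105 and 642 in T-ND and 2937, 3048 and 6790.2 in PT-D and did not pass (adjusted p = 0.18), T-ND replicate 3 being within the PT-D range.

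Of 32 cell cycle genes, 3 passed and all were higher (9.38%, against 1.61% of all genes, median 0.80). Birc5, which encodes survivin, had 16.6, 13.7, 27.2 and 22.6 in T-ND and 57.5, 77.5 and 52.8 in PT-D, and topoisomerase Top2a 14.3, 17.4, 58.7 and 20.4 and 112, 97.8 and 186 (log2 fold change 1.63 and 2.24, adjusted p = 0.0402 and 0.0434). The kinetochore gene Cenpf was at 2.37 (adjusted p = 0.0444), and calls numbered 0 without T-ND replicate 1 or 2 or 4 or PT-D replicate 2 or 3, 1 without PT-D replicate 1 and 10 without T-ND replicate 3. Immediate early genes passed in 4 of 28 cases, all higher (14.3%, against 1.61% of all genes). Their median was 0.66, 0.36 without PT-D replicate 1 and 0.195 in the libraries without the suffix "a" in their names. Klf6 had 703, 742, 1464 and 804 in T-ND and 2846, 2804 and 4232 in PT-D (log2 fold change 1.82 ± 0.27 SE, adjusted p = 0.0203), with T-ND replicate 3 the highest of its group, and Myc had 151, 182, 199 and 152 and 350.2, 393 and 439.8 (log2 fold change 1.20 ± 0.16 SE, adjusted p = 0.0173). The AP-1 factor Fosl2 and the small Maf protein Maff were at 1.64 (adjusted p = 0.0354) and 1.25 (adjusted p = 0.0324); calls in the list numbered 0 without T-ND replicate 1 or 4 or PT-D replicate 2 or 3, 2 without T-ND replicate 2 or PT-D replicate 1 and 10 without T-ND replicate 3. The small GTP-binding protein Rnd3 and the Rap regulator Sipa1l2 were higher by 1.21 (adjusted p = 0.00815) and 1.45 (adjusted p = 0.00845). The clock gene Npas2, of 19 clock genes, and the ERBB ligand Nrg1, of 32 growth factor genes, were the only members of their lists to pass, at 1.56 (adjusted p = 0.0484) and 1.51 (adjusted p = 0.0408). They are 5.26% and 3.12% of their lists, against 2.76% of all genes in either direction.

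The medians of the immune gene lists were positive, and only those of the neutrophil and acute phase lists exceeded 1. Outside the neutrophil list, calls were few. Neutrophil genes had the largest median of the 41, 1.81 over 23 genes, and 5 members passed, all higher (21.7%, against 1.61% of all genes). These were the formyl peptide receptor Fpr2, the granule proteases Mmp8 and Mmp9, lactoferrin (Ltf) and the chemokine receptor Cxcr2. Fpr2 had 82, 81.3, 99.5 and 75.2 in T-ND and 160.5, 195 and 199 in PT-D (log2 fold change 1.12 ± 0.19 SE, adjusted p = 0.0279), and Mmp8 25, 6.39, 28.3 and 27.9 and 172, 105 and 92.8 (log2 fold change 2.50 ± 0.45 SE, adjusted p = 0.0302). Mmp9 had 17.8, 11, 33.5 and 19.3 and 150.5, 67 and 66.4, with log2 fold changes of 2.98 for Ltf and 2.32 for Cxcr2. PT-D replicate 1 was the highest library in Mmp8, Mmp9, Ltf and Cxcr2. The calprotectin genes S100a8 and S100a9 showed the same: S100a9 had 304, 159, 430.5 and 309.6 in T-ND and 2323, 646 and 646 in PT-D, and neither passed (adjusted p = 0.0611 and 0.0527). Neutrophil calls numbered 0 without T-ND replicate 1 or 4 or PT-D replicate 2 or 3, 1 without T-ND replicate 2 or PT-D replicate 1 and 12 without T-ND replicate 3, and the median lay at 1.31 to 2.11 over those fits.

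No gene of the 30 in the monocyte and macrophage list passed in edgeR, 10 had an unadjusted p under 0.05 and 7 passed with DESeq2, and 4 passed in edgeR without T-ND replicate 3 (median 0.59), where Tlr2 and Fcgr3 had the smallest p at 1.74 (adjusted p = 0.0533) and 1.34 (adjusted p = 0.0563). Ptprc, the phosphatase on all leukocytes, had 128, 128, 188 and 101 in T-ND and 248, 281 and 349 in PT-D (log2 fold change 1.10 ± 0.23 SE, adjusted p = 0.0401) and was the only one of 32 lymphocyte list genes to pass. That is 3.12% of the list, near the 2.76% of all genes. Of 35 chemokines and cytokines, Lif, a cytokine of the interleukin 6 family, passed at 1.84 (adjusted p = 0.0302), and this 2.86% is near the share of all genes too. Ccl20, a chemokine that is not in that list, had 0, 1.83, 6.29 and 3.22 in T-ND and 23.7, 43.6 and 335 in PT-D (log2 fold change 5.48 ± 1.05 SE, adjusted p = 0.0325), with PT-D replicate 3 far above the others. Without T-ND replicate 3 there were 8 higher calls among the chemokines and cytokines, 14 in the acute phase list, 15 among antigen presentation genes and 16 in the list of NF-kB feedback and SOCS genes. All 4 lists held no call without T-ND replicate 1 or 4 or PT-D replicate 2. In the acute phase, complement and coagulation list, with 31 genes and a median of 1.27, Thbd and hemopexin (Hpx, 2.70, adjusted p = 0.0333) passed, 6.45% of the list. Outside it Itih4, an acute phase plasma protein, was at 3.08 (adjusted p = 0.0371). The liver marker sum, most of it Apob, was higher in PT-D too, and its part in these plasma protein genes was not tested. Cish, a STAT5-induced inhibitor of cytokine signalling, had 391, 926, 389 and 814 in T-ND and 157, 213 and 152 in PT-D and was lower (−1.87, adjusted p = 0.0302), while Socs3 and Bcl3 of the same list were at 1.40 (adjusted p = 0.0671) and 1.43 (adjusted p = 0.0594). H2-Q6, a class I molecule with near-identical neighbours that may share its reads, passed alone among 22 antigen presentation genes at 2.90 (adjusted p = 0.0279). It is 4.55% of its list, and Cish 4.17% of the list of NF-kB feedback and SOCS genes.

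Values of interferon-stimulated genes depended on single libraries. In 31 of 32 the log2 fold change was positive, at a median of 0.84, yet none passed in edgeR and in none were the groups apart; 6 had an unadjusted p under 0.05 and 1 passed with DESeq2. Without T-ND replicate 3, 21 of them passed and the median was 1.66. Their median was 0.46 without PT-D replicate 1 and 0.52 without T-ND replicate 1, and none passed in either fit. In the libraries whose names lack the suffix "a" (T-ND replicates 3 and 4 against PT-D replicates 2 and 3), the median was −0.12. The guanylate-binding protein Gbp7 had 339, 692, 2497 and 862 in T-ND and 3469, 1774 and 4920.5 in PT-D (log2 fold change 1.62 ± 0.57 SE, adjusted p = 0.128), and the factor Irf1 677, 711, 1178 and 820.2 and 1887, 783 and 2688 (log2 fold change 1.07 ± 0.35 SE, adjusted p = 0.107). In Gbp7, T-ND replicate 3 exceeded PT-D replicate 2, and PT-D replicate 2 was also the lowest PT-D library in Irf1.

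Levels in the T-D and PT-ND groups put the main genes in context. The fits against T-D and PT-ND use the same PT-D libraries, so that the comparisons are not independent, and 43 of 22294 genes passed against T-D (0.193%) and 2881 of 22303 against PT-ND (12.9%). A missed threshold there does not show that levels were equal. Several p53 targets had T-D levels around those of PT-D. Ccng1 had 6812, 9018, 8954 and 9614 normalized counts in T-D and 3427, 2966 and 3928 in PT-ND, with log2 fold changes of PT-D of 0.06 over T-D (standard error 0.19, adjusted p = 0.893) and 1.39 over PT-ND (adjusted p = 0.00271). Eda2r had 49.8, 173, 76.2 and 130 in T-D and 7.3, 5.66 and 5.77 in PT-ND, at 0.69 (standard error 0.39, adjusted p = 0.312) over T-D and 4.77 (adjusted p = 0.000382) over PT-ND. The differences over T-D were −0.23 for Phlda3 and 0.48 for Psrc1, and −0.17 for Ephx1, which is not in the p53 list (adjusted p of 0.735, 0.464 and 0.719). For the p53 target Zmat3, all T-D libraries (439 to 675) lay below all PT-D libraries (721 to 995). Its difference over T-D was 0.60 (standard error 0.18, adjusted p = 0.103). Ttr had 644, 753, 1757 and 1694 in T-D, with every library above PT-D replicates 1 and 3, and 3.13, 14.7 and 10.4 in PT-ND.

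In another set of genes PT-D stood below or above the 3 other groups. Fcgrt had 5750.5, 5710.4, 7291 and 8080.5 in T-D and 5001, 3278 and 6596 in PT-ND, all above the highest PT-D library, and it passed in both fits at −1.57 (adjusted p = 0.0093) over T-D and −1.13 (adjusted p = 0.0132) over PT-ND. Of the 33 genes named by p or fold change, Fcgrt alone passed against T-D in that fit, and it still passed whichever library was removed. The number of the 33 that passed against T-D depended on the fit: it was 20 with DESeq2, 19 in the joint fit of all 14 libraries, 19 with no filter on low counts and 6 with a replicate block, and it was 8 without T-D replicate 4, 3 without T-D replicate 2 and 2 without T-D replicate 1 or PT-D replicate 2. Among the list members named, Ndufb8, Serpine2 and Mmp9 passed against T-D, at −1.29 (adjusted p = 0.031), 1.16 (adjusted p = 0.0377) and 2.69 (adjusted p = 0.031). These 3 calls were lost with edgeR's own expression filter, and without T-D replicate 3 or PT-D replicate 1. That of Ndufb8 was also lost without PT-D replicate 2 or 3, that of Mmp9 without T-D replicate 2, and that of Serpine2 with every library left out but T-D replicate 4. Vwa1 had 739.5, 447, 1215 and 1480.2 in T-D and 2922, 2816 and 2572 in PT-ND, and all lay above PT-D (−1.71 over T-D, adjusted p = 0.0673, and −3.21 over PT-ND, adjusted p = 4.33e-05). Guca2b, Kcnk1 and Palld were at −1.92, −1.81 and 1.01 over T-D, with adjusted p of 0.062, 0.0664 and 0.0683, and passed over PT-ND. Aldh1a1 had 718, 1119.7 and 806 in PT-ND, a range that held all PT-D values but 1, and 419, 794, 598 and 524 in T-D. Its difference from PT-ND was 0.20 (standard error 0.18, adjusted p = 0.508) and that from T-D 0.79 (adjusted p = 0.0839).

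**Figure D4:**
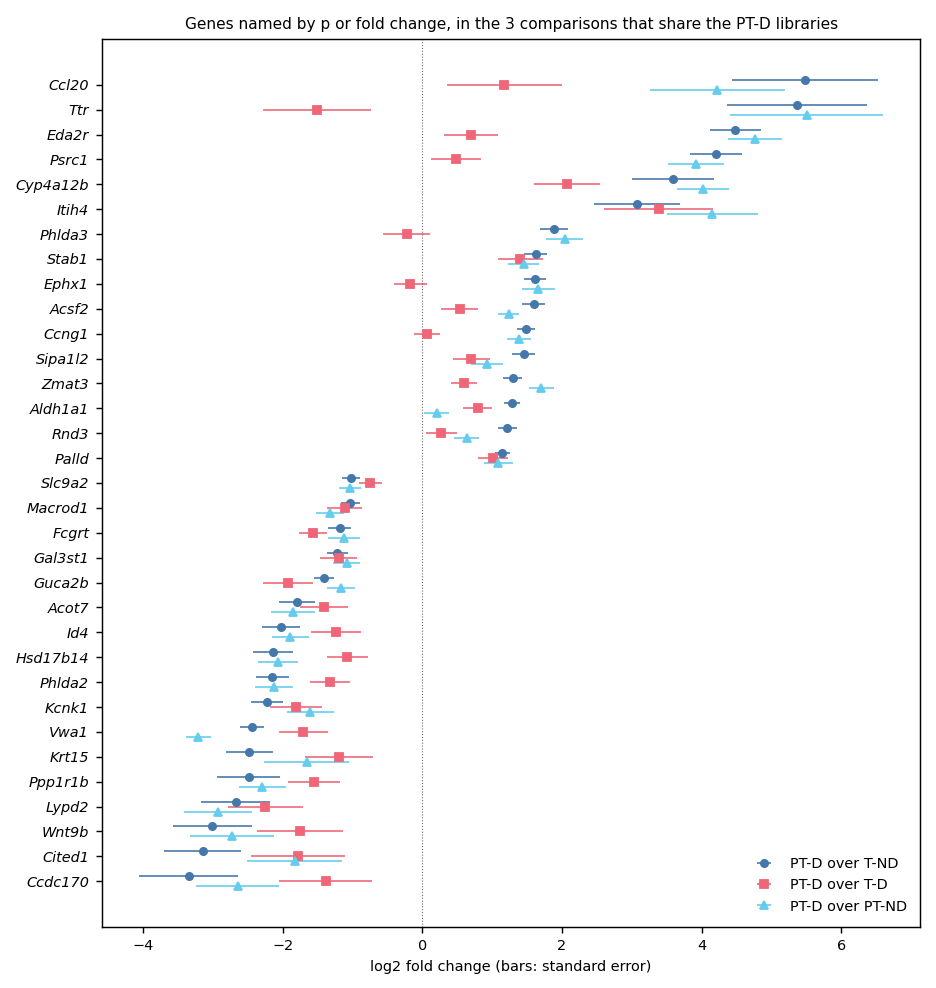
Log2 fold change of PT-D (horizontal axis, bars show the standard error) over T-ND (circles), T-D (squares) and PT-ND (triangles) for the 33 genes named by p or by fold change in the comparison with T-ND; the 3 comparisons share the PT-D libraries. For Ccng1, Phlda3 and Ephx1 the squares lie near 0, for Aldh1a1 the triangle does, and for Fcgrt all 3 marks lie below −1.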

How the data were processed

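Whole kidneys of 14 female CD-1 mice were sequenced, and the 7 libraries of PT-D and T-ND were used for the main comparison. The authors deposited 1 table of raw gene counts for each library, made, per the submitters' notes and the study's methods, with STAR on GRCm39 and GENCODE M36; the STAR version is not given in the sources used here. The column of counts that ignores strand was used, and reads on more than 1 gene went uncounted, so overlapping genes and near-identical copies are uncertain. Of 56980 gene identifiers, 56236 matched GENCODE M39 without their version, which gave biotypes and coordinates. Samples were grouped by the GEO labels. Genes were tested if they had a total count above 10 over the 14 libraries and a count in those of the comparison. The test was that of edgeR 4.0.16 (TMM normalization, quasi-likelihood F-test) in R 4.3.3, with Benjamini-Hochberg adjustment. DESeq2 1.42.0, other normalizations and filters, a joint fit, a replicate block, the suffix "a" carried by some library names, the removal of mitochondrial genes and the removal of each library in turn were the alternatives. The scripts were tested on simulated data.

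The libraries held 16867340 to 26187982 counted reads. With 1 library per mouse, p-values measure the spread between these mice only. Replicate numbers of the groups do not pair the mice: same-numbered libraries had deviations from their group means that correlated at −0.09, −0.10 and 0.11. Genes named were the 12 DEGs per direction with the smallest p among protein coding genes whose mean reaches 50 normalized counts and whose groups do not overlap, the 6 such DEGs per direction with the largest fold change, and in each gene list the 3 members per direction with the smallest p that passed, or the 2 with the smallest p where none passed. The other list members that passed, and Cdkn1a, Perp, Havcr1, Lcn2, S100a8, S100a9, Slc2a2, Flt1, Kdr, Col1a1, Upk1b, Slc14a1, Tcf21, Slc12a1, Slc12a3, Aqp2, Socs3, Bcl3 and Kap, were named after their values were seen. The comparison, the members and the 41 gene lists were chosen with earlier results of these data known. Promoter sequences were read from GRCm39. A few list members that meet the rule are not reported here.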

Additional observations from a re-analysis of the deposited data

Results flagged for a closer look

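In groups of 4 libraries, a library whose gap to its nearest neighbour took up more of the group's range than Dixon's test allows at 95% was noted. This held for 10 of 201 groups of values looked at (5.0%), and chance alone notes about 1 in 20. In T-ND replicate 3 it was the highest library for Psrc1, with 13.6 normalized counts against 6.39 in the next library, for Flt4 (340.4 against 236.5), Top2a (58.7 against 20.4), Klf6 (1464.4 against 804), Cxcr2 (40.9 against 15.4) and Lcn2 (3104.8 against 641.7). T-ND replicate 4 was the lowest for Zmat3 (313.9 against 351.6) and T-ND replicate 2 for Mmp8 (6.39 against 25). In T-D, replicate 4 was the lowest for Palld (381.0 against 690.9) and the highest for Guca2b (21448.6 against 9705.9).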

How the results depend on the processing

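With 3 and 4 libraries, and T-ND replicate 3 close to PT-D, the number of calls moved with the processing. No named gene that passed against T-ND changed direction, but these genes were chosen for passing, so that this is no test of stability. The 323 DEGs, 222 higher and 101 lower, became 964, 575 and 389 with DESeq2, 645, 409 and 236 with no filter on low counts, 70, 38 and 32 in the libraries without the suffix in their names, and 73, 51 and 22 with a replicate block, where the numbers share no mouse and no sign of pairing (PT-D replicate 1 correlated best with T-ND replicate 3). The 616 genes past the adjusted p became 2750 with DESeq2, 1341 with no filter, 1031 with edgeR's own expression filter, 976 with the suffix as a covariate, 70 without the suffixed libraries and 73 with the replicate block. Leaving out 1 library gave 28 to 1070 DEGs, 20 to 744 higher, 8 to 326 lower and 28 to 2356 genes past the adjusted p. The DEG counts under other normalizations, in the joint fit and without mitochondrial genes stayed within 1.5 times. Of the 125 named genes that passed, 124 still passed with DESeq2, 125 with RLE normalization, 123 with upper quartile normalization, 87 in the joint fit of all 14 libraries, 121 with the suffix as a covariate, 35 with the replicate block and 23 in the libraries without the suffix. Without the suffixed libraries, values that had not passed changed sign for Havcr1 (1.09), Kdr (−0.056) and Slc12a3 (−0.43). Against T-D, where none of the following passed, leaving out 1 library gave log2 fold changes of −0.047 (without PT-D replicate 2; −0.038 without T-D replicate 1) to 0.157 for Ccng1, −0.453 to 0.157 (without T-D replicate 4) for Phlda3 and −0.793 (without PT-D replicate 3) to 1.739 for Ccl20, and the replicate block gave 0.017 for Ephx1 and 0.22 for Phlda3. The cause of these moves was not tested.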
